A study of Mus musculus with 58 samples.

Results

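Fnip1 and 8 other genes, grouped here as brakes on the kinase complex mTORC1, were followed through 58 RNA-seq libraries of primary mouse CD4+ T cells. Brake is used as the name of the group and does not state in which direction each member acts on mTORC1. The activity of mTORC1 was not measured. The 9 genes were taken by name from 24028 genes in the deposited tables: Fnip1, Fnip2, Flcn, Tsc1, Tsc2, Sesn1, Sesn2, Sesn3 and Ddit4. All 9 passed the filter on low exonic counts, and 8 passed it for intronic counts, Ddit4 being the exception with 0 to 10 intronic counts per library. The libraries form 15 groups, 3 genotypes in 5 states, and address how the microRNA cluster miR-17~92 acts in T cell costimulation, the second signal through CD28. Wild-type (WT) cells were set against cells designated T1792 delta/delta, in which a CD4cre transgene deletes a loxP-flanked miR-17~92 cluster (KO), and cells designated T1792 tg/tg, in which the same CD4cre removes a stop cassette from a CAG-driven miR-17~92 transgene in Rosa26 (TG). KO and TG cells thus both carry a Cre that acts in T cells and that WT cells lack, so Cre and the cluster cannot be told apart in a comparison with WT, whereas TG against KO compares cells that both carry it. Naive cells came, by a commercial isolation kit, from lymph nodes and spleens pooled over mice of both sexes, with no age given. Cells were lysed without culture (naive) or cultured for 24 h or 48 h with IL-2 (50 U/ml) on antibody-coated plastic. The coat held anti-CD28 (0.2 µg/ml) together with anti-CD3, of which 0.25 µg/ml is termed very weak and 0.5 µg/ml weak. Each group has 4 libraries, apart from WT naive and KO naive cells with 3 each (replicates 1, 2 and 4). The labels do not say which mice gave which library, so p-values measure the spread between these libraries, which may in part be technical.

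mTORC1 is the kinase complex that turns growth factor, energy and amino acid signals into protein synthesis and growth, and quiescent T cells keep it low until antigen and costimulation switch it on. Its activator on the lysosome is the small GTPase Rheb, and the TSC complex, whose scaffold is Tsc1 and whose GTPase-activating subunit is Tsc2, switches Rheb off. Folliculin (Flcn) with its partners folliculin-interacting proteins 1 and 2 (Fnip1, Fnip2) binds AMPK and acts on the Rag GTPases that bring mTORC1 to the lysosome. Mice without Fnip1 have defects in lymphocyte development. The sestrins (Sesn1, Sesn2, Sesn3) inhibit the GATOR2 complex upstream of the Rag GTPases, Sesn2 as a leucine sensor, and Ddit4 (REDD1) is a stress-induced protein that acts through TSC. Sesn1 and Ddit4 are textbook p53 targets, Sesn2 is induced through ATF4 and p53, and Sesn3 is a FOXO target. MicroRNAs lower their targets mainly through seed matches in 3′ untranslated regions (3′UTRs), and Fnip1, Tsc1 and the others were therefore first read for seed matches of the cluster.

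In RefSeq (build GRCm38.p6) Fnip1 (Entrez 216742) lies at chr11:54438107-54518241 on the + strand and Flcn (216805) on the same chromosome at chr11:59791408-59810039 on the - strand. Fnip2 (329679) lies at chr3:79455971-79568151, Tsc2 (22084) at chr17:24595816-24632676, Sesn2 (230784) at chr4:132492804-132510456 and Ddit4 (74747) at chr10:59949675-59951770, all on the - strand. Tsc1 (64930) lies at chr2:28640993-28691172, Sesn1 (140742) at chr10:41810574-41908436 and Sesn3 (75747) at chr9:14276301-14326134, all on the + strand.

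The mature microRNAs of the cluster on chromosome 14 fall into 4 seed groups, and they are shown because every site named below is a match to 1 of these seeds (capitals, bases 2 to 8; RefSeq, build GRCm38.p6).
miR-17-5p: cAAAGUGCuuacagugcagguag
miR-20a-5p: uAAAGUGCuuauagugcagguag
miR-18a-5p: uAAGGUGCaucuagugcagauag
miR-19a-3p: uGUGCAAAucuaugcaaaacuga
miR-19b-3p: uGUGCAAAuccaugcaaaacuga
miR-92a-3p: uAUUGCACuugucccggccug
The 3′UTR of Fnip1 (2659 bases, the longest annotated one, GENCODE M21) held 2 sites for these seeds, both 8mers for miR-92a-3p, meaning a match to bases 2 to 8 followed by an A. They lie near its end, at bases 2399 to 2406 and 2634 to 2641, and are printed with their flanks because Fnip1 had the largest averaged genotype differences of the 9 members (GRCm38, + strand, capitals mark the 8mer).
Fnip1 first site, chr11:54517964-54517993: gaaaacatgaaGTGCAATAaacatactact
Fnip1 second site, chr11:54518199-54518228: aggggaaatttGTGCAATAaacactcatgt
Among 1840 3′UTRs of like length, 22.1% held any miR-92a-3p site, 4.18% an 8mer and 3.26% at least 2 sites. Fnip1 had no match to the other 3 seed groups, which 24.7% to 37.1% of the same 3′UTRs hold.

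Fnip2 and Tsc1 each carried 1 miR-92a-3p 8mer as well, and Sesn3 and Ddit4 held shorter matches to that seed.
Fnip2, chr3:79456262-79456291, - strand: tgtgacatttgGTGCAATAaactttttgaa
Tsc1, chr2:28687446-28687475, + strand: catttgaacctGTGCAATAtgaggccaaat
Beside that 8mer, the Tsc1 3′UTR (3994 bases) held 6 shorter matches: 3 for miR-19a/b, 2 for miR-18a and 1 for miR-17/20a. Its total of 7 was reached by 1.11% of 1172 3′UTRs of like length. Fnip2 had 1 further site, for miR-17/20a. In Sesn3 6 sites were found in an annotated 3′UTR of 7395 bases, but only 1 of them lies inside the RefSeq gene, and the deposited table gives Sesn3 an exonic length of 2158 bases, so most of that 3′UTR was not counted. The site of Sesn2, for miR-17/20a, also lies beyond its RefSeq gene. Ddit4 had 1 site, and Flcn, Tsc2 and Sesn1 had 0. A match is a string of letters and was not tested as a binding site. As a scale for what follows, 13.5% of 12773 tested genes with a 3′UTR were higher in stimulated KO than in WT cells and 18.1% were lower in TG. Among the 7045 genes without any of these sites the shares were 9.01% and 15%, and among the 344 with a miR-92a-3p 8mer, Fnip1, Fnip2 and Tsc1 included, 30.5% and 29.4%. Among the 686 genes that, like Fnip1, hold miR-92a-3p sites and no other, the shares were 14.7% and 21%. These are near those of all genes, which include genes with sites, and above those of genes without any. This class takes sites of any kind, not 8mers alone. Among the 12 genes with at least 2 miR-92a-3p 8mers, Fnip1 included, 7 were higher in KO and 4 lower in TG cells. The 8mer classes do not exclude genes with sites for the other seeds, and no class was matched for 3′UTR length. The part of these sites in the differences of Fnip1 was not tested.

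The libraries were of even exonic depth, with 19.2 to 20.8 M exonic counts. Intronic counts were 5.82 to 9.11 M in naive and 2.74 to 4.39 M in stimulated libraries. Levels are given in CPM (exonic counts scaled to a common library total, after TMM scaling), as the mean ± SD over libraries. The deleted hairpins followed the labels: Mir19a had 0 counts in 16 stimulated KO libraries, 72 in 16 WT and 79 in 16 TG libraries, and Mir17 had 2, 57 and 140. In naive cells Mir17 had 542 counts in 4 TG, 10 in 3 WT and 3 in 3 KO libraries, so the TG excess in this row was larger in naive cells. These rows count reads of poly(A) RNA that lie over the hairpins, and mature microRNAs were not measured. How they relate to Fnip1, for which no naive difference was called, was not tested. Mir17hg, the host gene row, was at 79.2 to 145 CPM in stimulated KO cells and 18.3 to 60.3 in WT cells and does not check the deletion. CD4 T cell markers were present in every group. Summed B cell markers fell from 114 to 299 CPM in naive to 12.1 to 65.1 in stimulated libraries (5 of 5 markers lower), myeloid markers from 79.3 to 283 to 0.263 to 4.87 (7 of 7), NK cell markers from 11.3 to 44.1 to 0.102 to 2.11 (4 of 4) and erythroid markers from 29.0 to 169 to 0 to 3.45 CPM (3 of 3). The naive preparations thus held traces of other cells, which move together with every naive against stimulated difference below and whose part in it was not tested. In bulk RNA, fewer cells of a type and less RNA per cell cannot be told apart.

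Per length, the 9 brakes spanned a wide range in resting WT cells. Ddit4 stood highest in WT naive cells at 68.8 ± 20.6 CPM per kb (SD, n = 3), followed by Sesn3 at 48.4 ± 1.85 and Sesn1 at 43.4 ± 4.81. Flcn (20.9 ± 2.01), Tsc2 (14.4 ± 1.03), Tsc1 (9.38 ± 0.327) and Fnip1 (8.05 ± 1.03) came next on the same CPM per kb scale, with Sesn2 (2.45 ± 0.262) and Fnip2 (0.256 ± 0.0877) lowest. The value of Sesn3 rests on the short model above. Under the weak stimulus at 48 h the order was Ddit4, Sesn3, Sesn2, Fnip1, Tsc2, Flcn, Sesn1, Tsc1 and Fnip2, at 78.7 to 1.02 CPM per kb. Fnip1 (10.9 ± 0.874), Tsc2 (10.6 ± 1.18) and Flcn (10.2 ± 1.18 CPM per kb) then differed by less than their SDs.

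Activation of WT cells split the brakes. Averaged over the 4 stimulated states against WT naive cells, Fnip1, Fnip2 and Sesn2 rose and Flcn, Tsc1, Sesn1, Sesn3 and Ddit4 fell, while Tsc2 was not called. All fold changes are edgeR estimates from 1 quasi-likelihood fit of all libraries, and “called” means an adjusted p (Benjamini-Hochberg, over 13709 genes) under 0.05. In this comparison 39.3% of all genes were called higher and 42% lower, so 3 of 9 higher and 5 of 9 lower are not read as particular to the set. The median log2 change of the 9 was -0.64, against -0.04 for all genes.

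**Figure D1:**
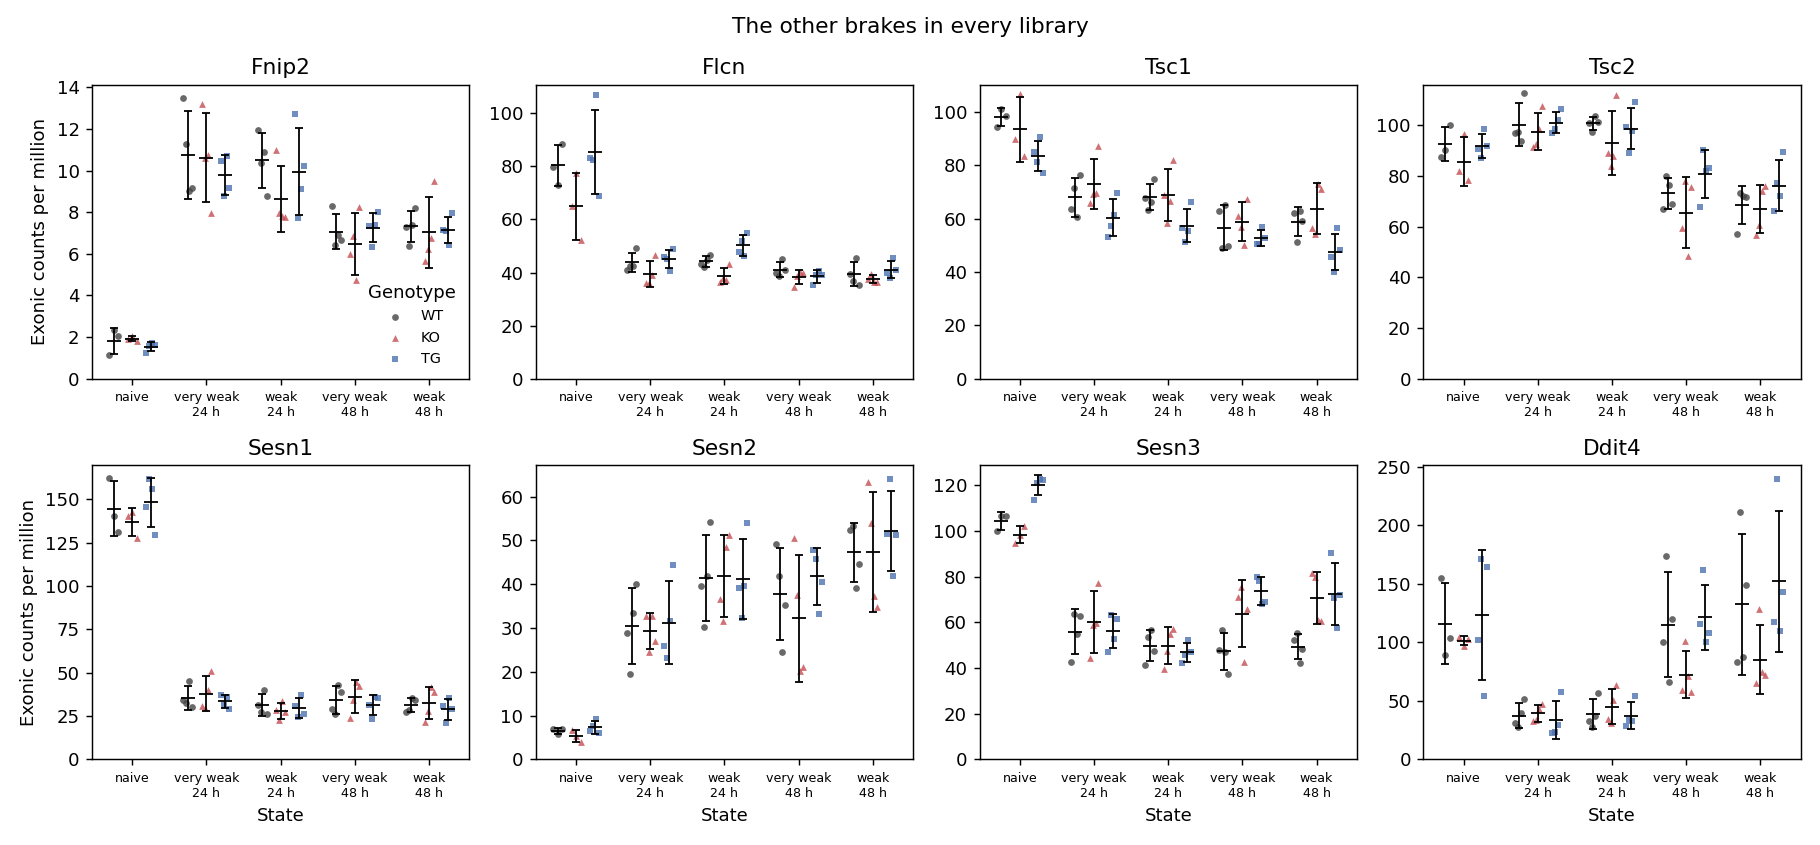
Exonic CPM (y axis, from 0) of the 8 brakes other than Fnip1 in each of 58 libraries, by state (x axis) and genotype (colour and symbol); black bars are the mean ± SD of a group. Fnip2 and Sesn2 lie lowest in naive cells, Sesn1, Sesn3, Flcn and Tsc1 highest there, and Ddit4 is low at 24 h only.

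Fnip1 and Fnip2 both rose, whereas their partner Flcn fell. Fnip2 was nearly silent in WT naive cells, at 1.12, 2.32 and 2.04 CPM, and stood at 13.5, 11.3, 9.01 and 9.17 CPM after 24 h of the very weak stimulus. Its groups did not overlap, and the averaged log2 change was 2.25 (SE 0.19, edgeR adjusted p = 5.53e-15). Fnip1 went from 50.6 ± 6.48 CPM in WT naive cells (n = 3) to 71.2 CPM averaged over the stimulated states, a log2 change of 0.49 (SE 0.13, edgeR adjusted p = 4.42e-04). Every WT stimulated state was called higher for Fnip1, by 0.42 to 0.64 on the log2 scale, although the weak 48 h state was not without the WT libraries numbered 4 (0.37, edgeR adjusted p = 0.0580). Flcn went the other way: its WT naive libraries held 79.7, 73.1 and 88.6 CPM, and the 16 stimulated ones 35.4 to 49.2 with a median of 42.3. That is a log2 change of -0.94 (SE 0.08, edgeR adjusted p = 3.60e-14).

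The TSC subunits also differed. Tsc1 held 94.2, 101 and 98.5 CPM in WT naive libraries and 48.9 to 76.5 (median 63.2) in stimulated ones, without overlap, a log2 change of -0.64 (SE 0.10, edgeR adjusted p = 7.01e-08). Tsc2 had a log2 change of -0.14 (SE 0.10, edgeR adjusted p = 0.195). This average hides a difference between times: against naive cells the log2 change of Tsc2 was 0.11 and 0.12 in the 24 h states (edgeR adjusted p = 0.398 and 0.360) and -0.34 and -0.44 in the 48 h states (edgeR adjusted p = 0.00907 and 0.00107). Without the WT libraries numbered 4, the very weak 48 h value was -0.17 (edgeR adjusted p = 0.304).

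The 3 sestrins did not move together. Sesn1 fell from 162, 141 and 131 CPM in WT naive libraries to between 26.0 and 45.4 (median 31.8) in the 16 stimulated ones, a log2 change of -2.13 (SE 0.15, edgeR adjusted p = 1.51e-18). Sesn3 fell from 99.8, 107 and 107 CPM to between 37.3 and 63.7 (median 50.2), a log2 change of -1.05 (SE 0.12, edgeR adjusted p = 1.18e-10). Sesn2 rose from 6.99, 5.71 and 6.82 CPM to between 19.5 and 54.1 (median 39.8), a log2 change of 2.57 (SE 0.27, edgeR adjusted p = 3.02e-12). None of the 3 sestrins had a stimulated WT library inside its naive range. This is not read as particular to them, as 39.3% of all genes were called higher and 42% lower here. Per length, Sesn1 stood far above Sesn2 in WT naive cells and below it under the weak stimulus at 48 h (9.40 ± 1.24 against 17.8 ± 2.53 CPM per kb, n = 4).

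Ddit4 was low at 24 h and higher again at 48 h. WT naive libraries held 155, 88.9 and 104 CPM, the 8 WT libraries at 24 h 27.5 to 56.9 (median 34.7), and the 8 at 48 h 66.5 to 211 (median 110.2 CPM). At 24 h Ddit4 was lower than in naive cells under both stimuli, with log2 changes of -1.63 and -1.59 (SE 0.35 for each, edgeR adjusted p = 5.26e-05 and 7.13e-05). At 48 h the log2 changes from naive cells were -0.01 and 0.20 (SE 0.35 for each, edgeR adjusted p = 0.984 and 0.614). With the block within time, although the numbers do not pair naive libraries, the weak 48 h state was called higher (0.47, edgeR adjusted p = 0.0176). Its averaged change of -0.76 (SE 0.27, edgeR adjusted p = 0.0102) was -0.38 without the WT libraries numbered 1 (edgeR adjusted p = 0.317) and -0.45 with the block within time (edgeR adjusted p = 0.00587). Ddit4 had wide spreads that followed the replicate number: number 4 was highest in 6 of 6 groups at 24 h and number 2 in 6 of 6 groups at 48 h.

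Between 24 h and 48 h in WT cells, 1 member rose (28.6% of all genes did) and 3 fell (26%). Ddit4 rose by 1.70 on the log2 scale (SE 0.24, edgeR adjusted p = 4.56e-08). Fnip2 fell by 0.56 (SE 0.12, edgeR adjusted p = 1.50e-04), from 10.6 ± 1.63 to 7.19 ± 0.749 CPM over 8 libraries each. Tsc2 fell by 0.51 (SE 0.08, edgeR adjusted p = 5.32e-07), from 100.4 ± 5.79 to 70.7 ± 6.89 CPM, with no overlap between the times. Tsc1 fell by 0.24 (SE 0.08, edgeR adjusted p = 0.0130), and this call was lost without the WT libraries numbered 2 (-0.19, edgeR adjusted p = 0.109) or numbered 4 (-0.14, edgeR adjusted p = 0.215). Fnip1 had a log2 change of -0.12 from 24 h to 48 h (95% interval -0.32 to 0.07, edgeR adjusted p = 0.283). Doubling the anti-CD3 dose called none of the 9 in WT cells (weak against very weak, edgeR, 0% of all genes, 563 genes at an unadjusted p under 0.05, and 0 of 9 by DESeq2). Sesn2 had the largest of these log2 differences among the members, 0.39 (95% interval 0.04 to 0.73, edgeR adjusted p = 0.987). With the replicate number as a block within each time, Sesn2 was called here (0.41, edgeR adjusted p = 0.0362) and between 24 h and 48 h (0.26, edgeR adjusted p = 0.0160), as was Flcn between the times (-0.13, edgeR adjusted p = 0.0338).

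Fnip1 separated the 3 genotypes once the cells were stimulated. It was higher in KO and lower in TG than in WT cells, and not detectably different in naive cells. The naive libraries held 53.2, 55.3 and 43.2 CPM in WT, 45.4, 52.9 and 48.4 in KO and 59.8, 55.9, 59.1 and 40.8 CPM in TG cells. These ranges overlap, with log2 differences from WT of -0.05 in KO (95% interval -0.37 to 0.27) and 0.09 in TG cells (95% interval -0.20 to 0.39).

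At 24 h of the very weak stimulus, Fnip1 held 74.6, 86.7, 81.0 and 73.5 CPM in WT cells. The KO libraries of that state held 90.4, 105, 94.7 and 93.7 and the TG libraries 51.5, 50.2, 54.8 and 63.6 CPM. No genotype overlapped another in this state. At 24 h of the weak stimulus, WT libraries held 60.4, 72.7, 80.4 and 64.9 CPM of Fnip1, KO libraries 85.4, 71.9, 84.9 and 90.9, and TG libraries 43.5, 38.4, 42.6 and 49.2. Here 1 KO library fell inside the WT range, and all TG libraries lay below WT.

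At 48 h of the very weak stimulus, Fnip1 held 78.2, 60.5, 70.4 and 61.4 CPM in WT, 88.6, 106, 73.0 and 110.5 in KO and 55.8, 42.4, 55.3 and 57.1 CPM in TG cells. At 48 h of the weak stimulus, the values were 71.2, 62.5, 65.7 and 74.8 CPM in WT, 77.0, 99.0, 85.3 and 106 in KO and 61.1, 33.8, 46.6 and 56.1 CPM in TG cells. TG and WT did not overlap in any of the 4 stimulated states, and KO and WT did not overlap in 2 of 4. Over all stimulated states the 16 KO libraries lay between 71.9 and 110.5 CPM and the 16 TG libraries between 33.8 and 63.6, with no overlap.

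**Figure D2:**
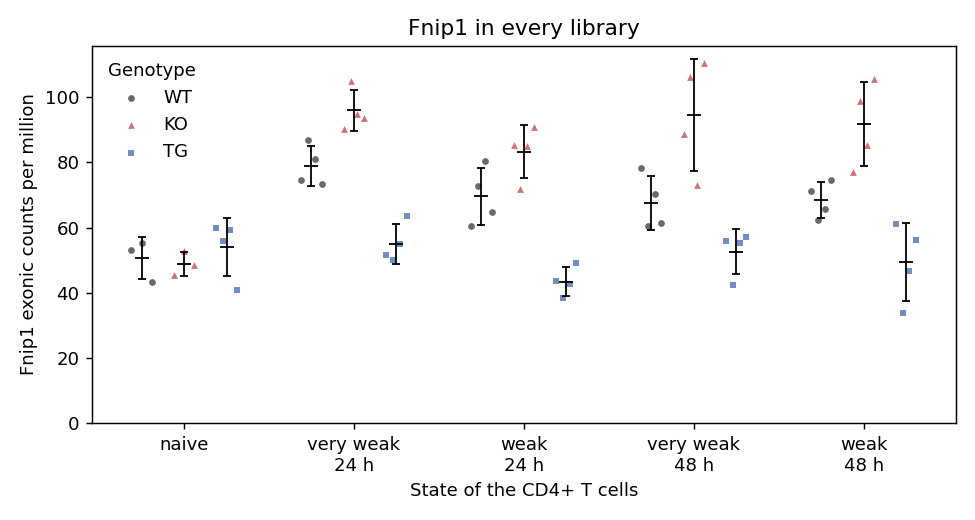
Fnip1 exonic CPM (y axis, from 0) in each library, by state (x axis) and genotype (colour and symbol); black bars are the mean ± SD of a group. Naive libraries of the 3 genotypes lie together between 40.8 and 59.8, while stimulated KO libraries lie at 71.9 or above and stimulated TG libraries at 63.6 or below.

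Averaged over the stimulated states, Fnip1 stood at 71.2 ± 2.38 CPM in WT, 91.4 ± 7.73 in KO and 50.1 ± 6.55 in TG cells (SD over 4 replicate numbers). The log2 difference of KO from WT was 0.36 (SE 0.07, edgeR adjusted p = 6.22e-05), with 15 of 16 same-numbered pairs higher in KO. That of TG from WT was -0.51 (SE 0.07, edgeR adjusted p = 5.13e-08), with 16 of 16 pairs lower in TG. TG against KO, the comparison in which both genotypes carry Cre, gave -0.87 (SE 0.07, edgeR adjusted p = 1.85e-15). The 3 Fnip1 averages kept their sign and their call in every alternative fit, including those with 4 sums of counts per genotype in place of 16 libraries.

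By single state, Fnip1 in KO cells was called at 48 h of the very weak stimulus (log2 0.48, SE 0.14, edgeR adjusted p = 0.0256). The other KO states gave 0.28 and 0.26 at 24 h (very weak and weak, edgeR adjusted p = 0.430 and 0.424), while the weak stimulus gave 0.42 at 48 h (edgeR adjusted p = 0.0570). In TG cells Fnip1 was called in 3 of 4 states, at -0.52 and -0.68 after 24 h (very weak and weak, edgeR adjusted p = 0.0169 and 0.00119), and under the weak stimulus at -0.47 after 48 h (edgeR adjusted p = 0.0170). At 48 h of the very weak stimulus it was -0.36 (SE 0.14, edgeR adjusted p = 0.0679). Of the 4 single-state calls, all but the TG call at 24 h of the weak stimulus were lost when 1 replicate number was left out: the KO call without KO or WT number 2 or 4 (0.39 to 0.43), the 24 h TG call without TG number 1 or 3 or WT number 2 (-0.50 to -0.48), and the 48 h TG call without TG number 2 or 3 or WT number 1 or 4 (-0.45 to -0.32). With the replicate number as a block within each time, the 2 states not called at 48 h were called as well (0.43 in KO and -0.37 in TG cells, edgeR adjusted p = 0.0142 and 0.0256). The TG effect on Fnip1 changed from naive to stimulated cells by -0.60 (SE 0.16, edgeR adjusted p = 0.0177, 6.18% of all genes called). That call was lost without TG number 1, 2 or 3 or WT number 4 (-0.57 to -0.50, edgeR adjusted p = 0.0588 to 0.130). The corresponding change of the KO effect was 0.41 (SE 0.17, edgeR adjusted p = 0.403, 0.168% of genes called). Between 24 h and 48 h the KO and TG effects on Fnip1 each changed by 0.18 (SE 0.14 for each, edgeR adjusted p = 0.710 and 0.649).

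Among the 9 members, Fnip1 and Sesn3 were called in KO cells over the stimulated average, both higher: 2 of 9, where 13% of all genes were higher and 0 of 9 lower, where 11.4% were. With the replicate number as a block within each time, 4 of 9 were called in KO cells, Flcn and Ddit4 joining as lower, in a fit that called 5053 of 13709 genes. Without the KO libraries numbered 4 it was also 4 (2618 of 13905 genes called), with Flcn (-0.17, edgeR adjusted p = 0.0139) and Tsc2 (-0.16, edgeR adjusted p = 0.0380) lower. In TG cells Sesn3 was higher (1 of 9, against 16.1% of genes) and Fnip1 and Tsc1 lower (2 of 9, against 17.7%). Over these averages the median log2 change of the 9 members was -0.07 in KO and 0.01 in TG cells, against -0.00 and -0.01 over all genes. In TG against KO cells, Flcn and Tsc2 were higher (28.3% of genes were) and Fnip1 and Tsc1 lower (29.7%). Both comparisons with WT share the same WT libraries. These shares are all near the background, so the count of members called says nothing particular about the set.

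**Figure D3:**
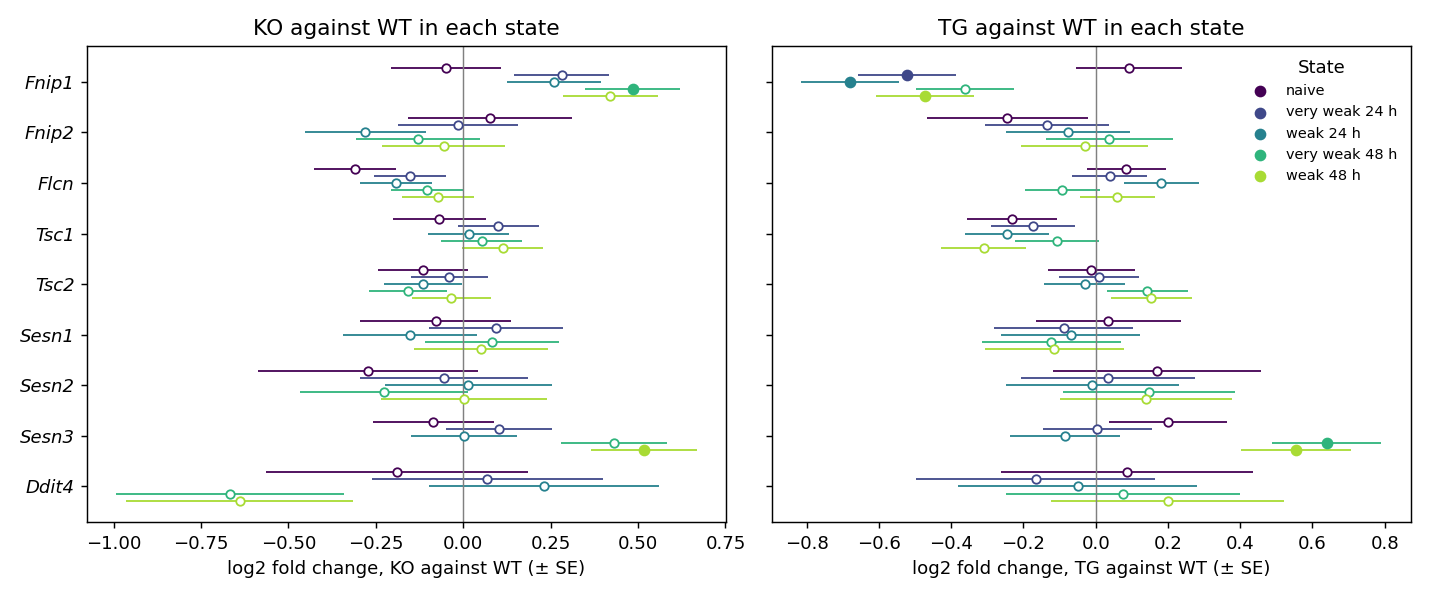
Log2 fold change (x axis, bars ± SE) of each brake in KO (left) and TG cells (right) against WT cells in each of 5 states (colour); filled points passed an edgeR adjusted p under 0.05. Fnip1 lies right of 0 in all 4 stimulated KO states and left of 0 in all 4 stimulated TG states, and Sesn3 lies right of 0 at 48 h in both.

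Sesn3 was higher at 48 h in TG cells under both stimuli and in KO cells under the weak one. At 48 h of the very weak stimulus it held 48.1, 56.7, 47.1 and 37.3 CPM in WT, 71.0, 75.5, 42.5 and 65.8 in KO and 79.9, 78.0, 67.8 and 68.9 CPM in TG libraries. At 48 h of the weak stimulus the values were 52.1, 55.2, 42.0 and 48.3 CPM in WT, 81.4, 79.7, 61.1 and 60.7 in KO and 90.3, 70.5, 57.4 and 72.1 CPM in TG libraries. At 48 h Sesn3 libraries of TG and WT cells did not overlap under either stimulus, and those of KO and WT did not under the weak one. The log2 differences at 48 h were 0.43 and 0.52 in KO (very weak and weak, edgeR adjusted p = 0.0893 and 0.0338) and 0.64 and 0.55 in TG cells (edgeR adjusted p = 0.00276 and 0.0113). The call of Sesn3 in KO cells was lost without KO number 1 or 2 or WT number 2, 3 or 4 (0.43 to 0.57, edgeR adjusted p = 0.0567 to 0.153), and that in TG cells under the weak stimulus without TG number 1 or WT number 3 (0.44 and 0.48). With the block within time, the very weak KO state was called too (0.41, edgeR adjusted p = 0.00340).

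At 24 h the Sesn3 differences were small, between -0.09 and 0.10 on the log2 scale in both genotypes and under both stimuli, and none was called. The change of the TG effect on Sesn3 from 24 h to 48 h was 0.64 (SE 0.15, edgeR adjusted p = 0.0141, 1.85% of all genes called). That of the KO effect was 0.42 (SE 0.15, edgeR adjusted p = 0.227, 0.781% called), which the block within time called (0.42, edgeR adjusted p = 0.0102). Leaving out the TG libraries numbered 1 or 2 or the WT libraries numbered 3 or 4 ended the TG call (edgeR adjusted p = 0.0534 to 0.158). Averaged over the stimulated states, Sesn3 was higher by 0.26 in KO (SE 0.08, edgeR adjusted p = 0.00796) and by 0.28 in TG cells (SE 0.08, edgeR adjusted p = 0.00332), and TG and KO differed by 0.01 (95% interval -0.14 to 0.17). The KO value was not called on 4 sums per genotype (0.28, edgeR adjusted p = 0.0644), and was with the block on those sums (0.28, edgeR adjusted p = 0.0123).

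Tsc1, the TSC scaffold, was lower in TG cells by 0.21 on the log2 scale over the stimulated average (SE 0.06, edgeR adjusted p = 0.00411, 13 of 16 same-numbered pairs). It stood at 62.9 ± 2.81 CPM in WT, 66.1 ± 7.46 in KO and 54.5 ± 4.61 in TG cells (SD over 4 replicate numbers). In no single state were WT and TG libraries of Tsc1 apart, and none was called (log2 -0.11 to -0.31, edgeR adjusted p = 0.0848 to 0.604). With the block within time, both weak stimulus states were called (-0.25 at 24 h and -0.31 at 48 h, edgeR adjusted p = 0.0441 and 0.00696). On 4 sums per genotype the TG difference was -0.21 (edgeR adjusted p = 0.117, and 0.0122 with the block), and TG against KO gave -0.28 (SE 0.06, edgeR adjusted p = 5.29e-05). In TG naive cells Tsc1 differed from WT by -0.23 (SE 0.12, edgeR adjusted p = 0.275), so the change between naive and stimulated cells was 0.02 (SE 0.14). The TG difference of Tsc1 was thus not shown to change with stimulation (95% interval of the change -0.25 to 0.30). Tsc2, the catalytic partner, was at -0.09 in KO and 0.07 in TG cells (95% intervals -0.20 to 0.03 and -0.04 to 0.18). TG against KO cells differed by 0.16 for Tsc2 (SE 0.06, edgeR adjusted p = 0.0150), a call lost without the KO libraries numbered 1 (0.12) or the TG libraries numbered 4 (0.10). On 4 sums per genotype without a block Tsc2 was not called either (0.13, edgeR adjusted p = 0.172). The Tsc2 row overlaps the last bases of Pkd1 on the opposite strand, and the strand setting of the counting is not given in the sources used here.

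Flcn itself stood at 38.5 ± 2.26 CPM in KO, 42.1 ± 2.05 in WT and 43.7 ± 1.56 in TG cells (SD over 4 replicate numbers). The KO difference of -0.13 was not called (SE 0.05, edgeR adjusted p = 0.0591, 13 of 16 same-numbered pairs lower). With the block within each time it was called at the same size (-0.13, edgeR adjusted p = 0.00789), but not in the blocked fit on 4 sums per genotype (-0.13, edgeR adjusted p = 0.0766). TG against KO gave 0.18 for Flcn (SE 0.05, edgeR adjusted p = 0.00294). Fnip2, the paralog of Fnip1 with a single miR-92a-3p 8mer, differed from WT by -0.12 in KO (95% interval -0.30 to 0.06) and -0.05 in TG cells (95% interval -0.23 to 0.12). Its 8.19 to 8.90 CPM per genotype gave wider errors than the level of Fnip1. Overlapping gene Gm17359 on the opposite strand shares the end of the Fnip2 row.

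Sesn1 and Sesn2 were not called in either genotype. Over the stimulated average, Sesn1 differed from WT by 0.02 in KO (95% interval -0.17 to 0.21) and -0.10 in TG cells (95% interval -0.29 to 0.10). Sesn2 differed by -0.07 in KO (95% interval -0.31 to 0.18) and 0.08 in TG cells (95% interval -0.16 to 0.32). Sesn2 was called between TG and KO cells with the block within time (0.16, edgeR adjusted p = 0.0374, against 0.14 and 0.307 without), but not in the blocked fit on 4 sums per genotype (0.13, edgeR adjusted p = 0.220).

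The readings of Ddit4 depended on the block. At 48 h KO libraries held 57.9 to 129 CPM (median 71.9) and WT libraries 66.5 to 211 (median 110.2), with overlapping ranges. The log2 differences of -0.67 and -0.64 (very weak and weak, SE 0.33 and 0.32) were not called (edgeR adjusted p = 0.262 and 0.271). With the block within time they were -0.62 and -0.60 (edgeR adjusted p = 0.00517 and 0.00649), and the change of the KO effect from 24 h to 48 h was -0.78 (edgeR adjusted p = 0.00228, against -0.80 and 0.331 without). At 24 h the KO differences of Ddit4 were 0.07 and 0.23. Over the stimulated average Ddit4 differed by -0.25 in KO (95% interval -0.58 to 0.08) and 0.01 in TG cells (95% interval -0.31 to 0.34). Blocked, the KO value was -0.22 (edgeR adjusted p = 0.0244) and TG against KO 0.25 (edgeR adjusted p = 0.00659). In the blocked fit on 4 sums per genotype, which weights states by their counts, they were -0.38 and 0.47 (edgeR adjusted p = 0.0230 and 0.00210).

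The single states set these calls against their own backgrounds. In KO cells 0 of 9 members were called at 24 h under the very weak and the weak stimulus (edgeR, 1.06% and 1.4% of all genes), Fnip1 alone at 48 h of the very weak (4.63%) and Sesn3 alone at 48 h of the weak stimulus (5.04%). In TG cells Fnip1 was the called member at 24 h under both stimuli (3.73% and 4.81%), Sesn3 at 48 h of the very weak (13.3%) and both at 48 h of the weak stimulus (9.96%). In naive cells edgeR called 0 of 9 in KO (0.0365% of genes, with 651 genes at an unadjusted p under 0.05, and 0 of 9 by DESeq2) and 0 of 9 in TG cells (7.83%, with 2997 genes, and 0 of 9 by DESeq2). The lowest unadjusted p among the naive members was that of Flcn in KO cells, with a log2 difference of -0.31 (SE 0.12, edgeR adjusted p = 0.892).

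Markers of T cell activation moved with the genotype too. Over the stimulated average, 3 of 5 activation markers were lower in KO cells (11.4% of all genes were). These were Il2ra, Myc and Cd44, at log2 differences from WT of -0.49, -0.30 and -0.33. Cd44 (1.03) and Il2ra (0.64) were higher in TG than in WT cells (2 of 5, against 16.1% of all genes). The 6 CD4 T cell markers measured were all lower in TG cells, against 17.7% of all genes (Cd4 at -0.29, Cd3e at -0.40). The 5 activation markers summed to 1830 to 3560 CPM in stimulated KO, 2379 to 3587 in WT and 2723 to 4495 in TG libraries, none being at 0. In WT activation all 5 of these markers rose, as did Fnip1 (39.3% of all genes did). The part of activation in the genotype differences of Fnip1, Sesn3 and Tsc1 was not tested.

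Intronic counts, which come mostly from unspliced RNA, were read to see where the exonic differences were also present before splicing. Exonic and intronic counts were each scaled to their own totals. Intronic reads made up 22.6% to 30.7% of exonic plus intronic counts in naive and 12.4% to 18.4% in stimulated libraries. Intronic changes against naive cells are therefore relative to a smaller total. In WT activation 7 of 8 members were called in the intronic counts (65.8% of 12366 genes tested), with Fnip1 (log2 0.93), Fnip2 (3.23) and Sesn2 (1.43) higher and Flcn (-1.29), Sesn1 (-1.74), Sesn3 (-1.27) and Tsc1 (-0.38) lower, each on the same side as its exonic change. Raw intronic counts of Fnip1 did not rise, at 478 to 951 in WT naive and 309 to 826 in WT stimulated libraries. Only relative to intronic totals was the Fnip1 rise larger in introns than in exons: the exonic minus intronic difference was -0.47 (SE 0.14, edgeR adjusted p = 0.00282). That difference was called for 5 of 8 members (57% of 11350 genes), also for Fnip2 (-0.99), Sesn1 (-0.43), Sesn2 (1.12) and Flcn (0.33). Without the WT libraries numbered 2 it was 2 of 8, Fnip1 itself being lost (-0.40, edgeR adjusted p = 0.0552), and without those numbered 4 it was 3 of 8, Fnip2 being lost (-0.64, edgeR adjusted p = 0.125). The call of Flcn was lost whichever WT number was left out (0.26 to 0.37, edgeR adjusted p = 0.0577 to 0.160).

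In KO cells no intronic difference of Fnip1 was detected. The WT stimulated groups averaged 139 to 174 intronic CPM (scaled to intronic totals) for Fnip1 and the KO groups 156 to 163, a log2 difference of 0.07 (95% interval -0.12 to 0.26, edgeR adjusted p = 0.771). Intronic counts called 0 of 8 members in KO cells (edgeR, 3.68% of genes, with 2087 at an unadjusted p under 0.05). The exonic minus intronic difference of Fnip1 in KO against WT was 0.30 (SE 0.08, edgeR adjusted p = 0.0230). Fnip1 was the only 1 of 8 called, where 2.01% of genes were. This call was lost without the KO libraries numbered 1 (0.24, edgeR adjusted p = 0.0947), without the WT libraries numbered 2 or 3 (0.30 and 0.25, edgeR adjusted p = 0.0717 and 0.102), and without a term for each library (0.28, edgeR adjusted p = 0.376). Sesn2 had an exonic minus intronic value of 0.37 in KO cells (SE 0.17, edgeR adjusted p = 0.321), which was called with the replicate block (0.38, edgeR adjusted p = 0.0484), as was its lower intronic value with the block within time (-0.45, edgeR adjusted p = 0.0211, against -0.39 and 0.418 without). Without the KO libraries numbered 1 both values of Sesn2 were larger and called, 0.65 for exonic minus intronic and -0.83 for intronic counts (edgeR adjusted p = 0.0235 and 0.0212).

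In TG cells Fnip1 was lower in introns as well. TG groups averaged 94.2 to 147 intronic CPM, a log2 difference from WT of -0.38 (SE 0.10, edgeR adjusted p = 0.00470), and 2 of 8 members were called (11% of genes). Without the TG libraries numbered 2 it was -0.29 (edgeR adjusted p = 0.0643). The exonic minus intronic difference of Fnip1 in TG against WT was -0.12 (SE 0.08, edgeR adjusted p = 0.545), with 0 of 8 members called (edgeR, 3.01% of genes, 1643 at an unadjusted p under 0.05). Between TG and KO cells, Fnip1 was lower by 0.45 in introns (SE 0.10, edgeR adjusted p = 1.90e-04, 2 of 8 members called, 33.6% of genes) and its exonic minus intronic difference was -0.41 (SE 0.08, edgeR adjusted p = 5.59e-05, 1 of 8 members, 21.1% of genes). The other intronic call was Tsc2 (0.26, edgeR adjusted p = 0.0263), lost without the KO libraries numbered 1 or 3 or the TG libraries numbered 2 or 4 (0.15 to 0.24). With the block within time, 4 of 8 were called (5250 of 12366 genes), Sesn2 (0.62, edgeR adjusted p = 1.63e-04) and Fnip2 (0.25, edgeR adjusted p = 0.0372) joining as higher in TG. With the replicate block, 2 of 8 had a called exonic minus intronic difference (2922 of 11350 genes), Sesn2 (-0.45, edgeR adjusted p = 0.00206) joining Fnip1. Sesn3 was the other member called in introns of TG against WT cells, at 0.34 (SE 0.09, edgeR adjusted p = 0.00804, but 0.21 and 0.133 without the TG libraries numbered 1 and 0.25 and 0.0867 without the WT libraries numbered 4), with an exonic minus intronic difference of -0.04 (SE 0.10). In KO cells the intronic difference of Sesn3 was 0.19 (SE 0.09, edgeR adjusted p = 0.263), near its exonic 0.26. The lower Tsc1 of TG cells had an intronic value of -0.13 (SE 0.08, edgeR adjusted p = 0.316) and an exonic minus intronic value of -0.07 (SE 0.08, edgeR adjusted p = 0.790).

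**Figure D4:**
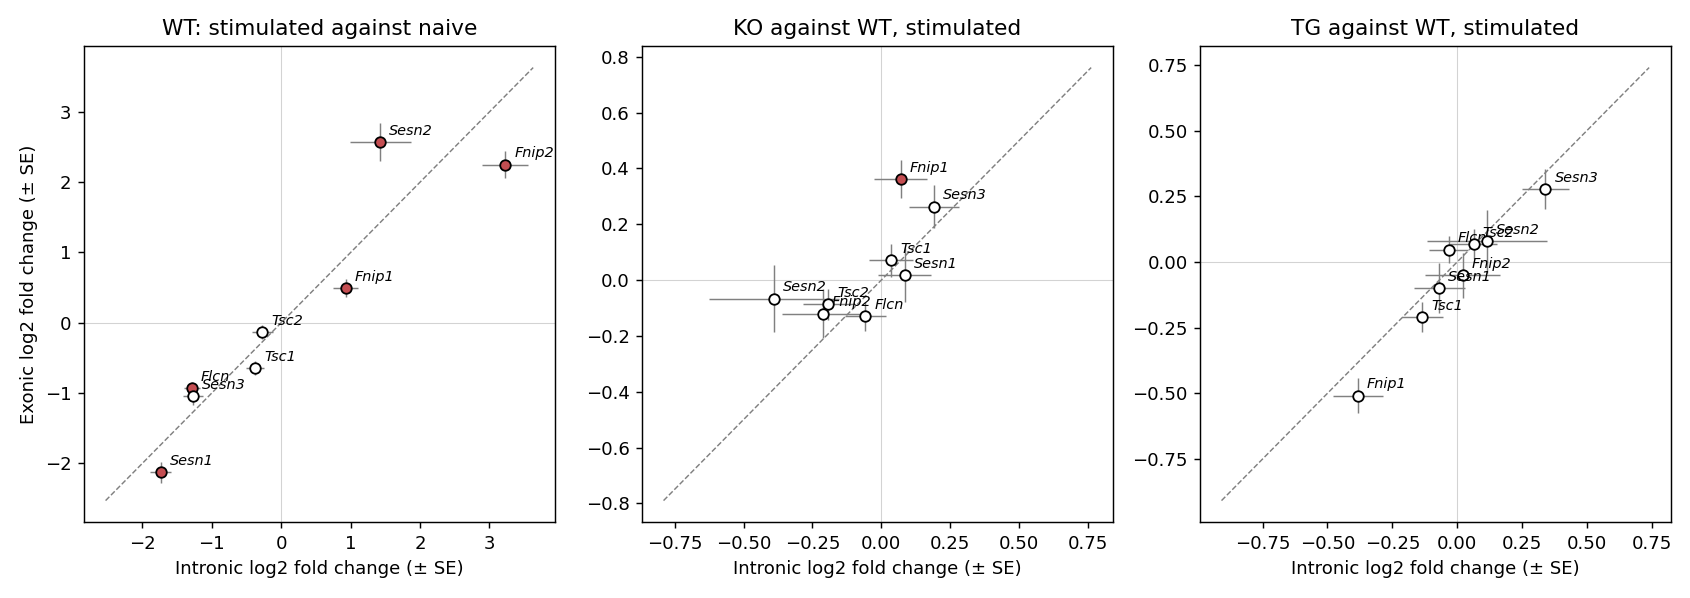
Exonic (y axis) against intronic log2 fold change (x axis), bars ± SE, of the 8 brakes with enough intronic counts in WT activation, KO against WT and TG against WT over the stimulated average; red points had a called exonic minus intronic difference and the dashed line marks equal change. In KO cells Fnip1 lies above the line at an intronic value of 0.07 and an exonic one of 0.36, and in TG cells it lies near the line.

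The other genes of the mTORC1 pathway were read from 8 fixed lists, by their counts and medians. Of all genes, 13% were called higher and 11.4% lower in KO cells, and 16.1% and 17.7% in TG cells. Of 14 further lysosomal and TSC brakes, 3 rose and 1 fell in KO cells over the stimulated average, and 2 rose and 3 fell in TG cells. Bmt2 (SAMTOR, a sensor that restrains mTORC1) was at 0.26 in KO and -0.27 in TG cells, on the sides Fnip1 took. Akt1s1 (PRAS40, an inhibitory subunit of mTORC1) lay the other way, at -0.25 and 0.26. Castor2, a paralog of the arginine sensor Castor1, rose by 0.39 in KO cells, and Pik3ip1, an inhibitor of PI3K, fell by 0.52 in TG cells. In WT activation 3 of these 14 rose (39.3% of all genes did) and 8 fell (42%).

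Among 19 genes of mTORC1 and its activators, 7 fell (11.4% of all genes did) and 1 rose (13%) in KO cells. In TG cells 7 rose (16.1%) and 2 fell (17.7%). Rraga, a Rag GTPase that recruits mTORC1 to the lysosome, stood at 68.4 ± 1.99 CPM in WT, 56.6 ± 1.76 in KO and 93.7 ± 4.75 in TG cells (SD over 4 replicate numbers). Its log2 differences were -0.27 in KO and 0.45 in TG cells (SE 0.04 for each, edgeR adjusted p = 9.78e-07 and 8.55e-13). Rheb, the GTPase that the TSC complex switches off, was at -0.27 and 0.32, and Lamtor3, a subunit of the Rag anchor Ragulator, at -0.31 and 0.39. These 3 were named for the smallest adjusted p of the list in both genotypes. The 1 gene that rose in KO cells and the 2 that fell in TG cells went the other way. Any link of these differences to Fnip1 was not tested. The list medians were -0.03 in KO and 0.08 in TG cells, against -0.00 and -0.01 for all genes.

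Of 11 substrates and outputs of mTORC1, 2 fell in KO cells (11.4% of all genes did), and 2 rose (16.1%) and 1 fell (17.7%) in TG cells. Larp1, a substrate that controls messages of the translation machinery, was at -0.31 in KO and 0.15 in TG cells, and Rps6kb1 (S6 kinase) at -0.14 and 0.13. Tfe3, a transcription factor held in the cytoplasm by mTORC1, fell by 0.16 in TG cells. Of 8 AMPK genes 1 rose in KO, and 1 rose and 1 fell in TG cells: Stk11 (LKB1, the kinase that activates AMPK) was at 0.12 in KO and -0.12 in TG, and its partner Cab39 at 0.12 in TG cells. Of 11 upstream PI3K-AKT genes 2 rose and 2 fell in KO cells, and 3 fell in TG cells. The AKT phosphatase Phlpp2 was at 0.40 in KO and -0.26 in TG cells. Inpp5d, a lipid phosphatase, fell by 0.22 in KO cells, and Pik3cd, a catalytic PI3K subunit, fell by 0.23 in TG cells.

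The regulators of the sestrins and Ddit4 gave mixed readings. Of all genes, 39.3% rose and 42% fell in WT activation, 13% and 11.4% in KO cells, and 16.1% and 17.7% in TG cells. Of 8 FOXO-linked genes of resting T cells, 7 fell in WT activation with a list median of -2.65, the side on which Sesn1 and Sesn3 also lie. In KO cells 2 of the 8 rose, Klf2 (0.87) and S1pr1 (0.90), which keep T cells recirculating. In TG cells 3 fell, among them Klf2 (-0.90) and Btg1 (-0.37), and 2 rose, among them Foxo1 (0.33). Of 9 ATF4 targets, 8 rose in WT activation, where Sesn2 rose as well, with a list median of 2.53, and 1 fell, Ddit3, by 1.19 (named after its value was seen). In KO cells 2 of the 9 fell, Atf5 (-0.34) and Phgdh (-0.24), and in TG cells edgeR called 0 of 9. Of 9 p53 targets, 6 rose and 2 fell in WT activation, where Sesn1 fell. In KO cells edgeR called 0 of 9 p53 targets, and in TG cells Mdm2 rose (0.17) and Trp53inp1 (-0.61) and Bbc3 (-0.45) fell.

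Promoters were read for 3 motifs on both strands in the RefSeq windows around gene starts, all of the same length (GRCm38.p6, 32544 promoters), because Sesn1 and Sesn3 fell with the FOXO-linked genes and the FLCN complex acts on TFE transcription factors. The FOXO motif TGTTTAC was found in Sesn1 alone among the members and in 3.66% of all promoters. The E-box core CACGTG of the CLEAR element was found in Fnip1 alone and in 7.17% of all promoters. The ATF motif TGATGNAA was found in no member and in 3.91% of promoters.
Sesn1, chr10:41810585-41810613, + strand: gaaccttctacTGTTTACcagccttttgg
Fnip1, chr11:54438092-54438121, + strand, the motif spanning the first base of the gene as positioned above: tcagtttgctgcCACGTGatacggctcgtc
The Fnip1 window is placed on a transcript start downstream of the gene's first base. These matches are descriptions and say nothing of whether a factor binds.

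Over the means of the 15 groups, the 5 genes whose log2 levels followed Fnip1 most closely (Pearson's r, a description over 15 points that share libraries) were Ubash3b (r = 0.953), Arel1 (0.948), Hook3 (0.940), Btf3l4 (0.933) and Rbl1 (0.917). The ranking used the stimulated KO and TG groups. A shared direction therefore follows in part from how the genes were picked and is no separate result. All 5 were higher in KO over the stimulated average (13% of all genes were), by 0.23 to 0.45 on the log2 scale. In TG cells 4 were lower (17.7% of all genes were), by -0.35 to -0.81, Hook3 (-0.20, edgeR adjusted p = 0.0823) being the exception. Among the members, Fnip2 (r = 0.419) and Sesn2 (0.362) had positive values with Fnip1 and Flcn the lowest (-0.570). In the order of the 15 groups by mean level, the 4 stimulated KO groups led for Fnip1 and the 4 stimulated WT groups followed. Of the 14 neighbouring pairs in that order, 3 differed by more than the larger of their SDs: WT very weak 24 h over WT weak 24 h, WT very weak 48 h over TG very weak 24 h, and KO naive over TG weak 24 h. Stimulated TG cells and naive cells of all genotypes shared the 7 lowest places, at 43.4 to 55.0 CPM.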

How the data were processed

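RNA-seq of poly(A) RNA, sequenced single-end from stranded libraries, gave 2 deposited tables of raw counts, 1 of exonic and 1 of intronic reads per gene. Per the submitters' processing notes the authors' tools were STAR 2.5.2a and FastQC 0.11.5 with build mm10, then edgeR 3.24.3 in R 3.5. How reads were counted (program, annotation, use of strand) was not given in the sources used here. Totals were 19.2 to 20.8 M exonic and 2.74 to 9.11 M intronic counts per library, and 23968 of 24028 gene IDs matched a RefSeq symbol. No 2 libraries held identical counts (0 pairs).

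The 58 libraries were fitted together with edgeR 4.0.16 in R 4.3.3 (TMM scaling, filterByExpr, quasi-likelihood F test, 1 coefficient per group, 43 residual degrees of freedom), with Benjamini-Hochberg adjustment over all 13709 genes tested and calls at an adjusted p under 0.05. Intronic counts were fitted likewise (12366 genes). The exonic minus intronic difference was tested in 1 fit of both tables with a coefficient per library (11350 genes). The authors' label for the first table is full. It was read as exonic because the intronic count exceeded it in 14.1% of values, which a count over whole genes would not allow. The scripts were tested on simulated data. DESeq2 1.42.0, other scalings, no filter, replicate blocks, sums over states and left-out replicates were the alternatives.

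Members and lists were chosen with earlier results of these data known. Pathway genes named are up to 3 called genes per list and comparison with the smallest adjusted p, at a group mean of at least 5 CPM, and the 5 genes most like Fnip1 are those of highest r over group means. One gene that this rule names is not reported here. Replicate numbers were checked for pairing: in each stimulated state all 12 same-numbered pairs across genotypes deviated together (lowest r 0.132 to 0.154 by state), so the numbers pair the stimulated libraries. Of the 9 naive pairs 6 did so (lowest r -0.05), so they do not pair naive ones. Within a genotype, all 24 same-numbered pairs of the very weak and weak stimulus at 1 time also deviated together (lowest r 0.268). The 16 stimulated libraries of a genotype are therefore not independent, which the main fit does not model. Markers Trac and Hba-a1 did not match by symbol. Sites were searched in the longest GENCODE M21 3′UTR of each gene.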

Additional observations from a re-analysis of the deposited data

Results flagged for a closer look

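Of 117 groups of 4 libraries (over the 9 members), 5 held a library far from the other 3, and chance flags about 1 in 20 groups. Fnip1 was low in replicate 2 of TG cells at 48 h of the very weak stimulus (42.42 CPM, the others 55.3 to 57.1). Fnip2 was high in replicate 1 of KO cells at 24 h of the weak stimulus (11 CPM, the others 7.77 to 7.94). Tsc1 was high in replicate 4 of KO cells at 24 h of the very weak stimulus (86.99 CPM, the others 65.9 to 69.4). Tsc2 was low in replicate 1 of WT cells at 48 h of the weak stimulus (57.09 CPM, the others 71.5 to 73.3). Ddit4 was high in replicate 2 of KO cells at 48 h of the weak stimulus (128.7 CPM, the others 64.9 to 74.8).

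For 2 members the TG effect differed between conditions by a test of the difference itself. The effect on Fnip1 changed by -0.6007 on the log2 scale from naive to stimulated cells (edgeR adjusted p = 0.0177), and that on Sesn3 by 0.6372 from 24 h to 48 h (edgeR adjusted p = 0.0141). Each call was lost in 4 of 8 fits that left out 1 replicate number.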

How the results depend on the processing

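The averages of Fnip1 kept their sign and call in 8 fits that left out 1 replicate number and 11 other alternatives each: 0.31 to 0.40 in KO (largest edgeR adjusted p 0.0318), -0.58 to -0.42 in TG (0.00375) and -0.94 to -0.79 in TG against KO. No member changed sign with a call in any alternative. The number of members called in KO cells over the stimulated average was 2, and 4 with the replicate block within time, 1 on replicates 1 and 2 only, 1 on sums over states, and 2 to 4 leaving out 1 replicate number. Tsc1 was called in naive TG cells with the block within time (1 member against 0), although the numbers do not pair naive libraries, and Sesn2 in weak against very weak stimulus (1 against 0). In introns, KO calls went from 0 to 1 with the block within time and lay at 0 to 1 leaving out 1 number, TG calls at 1 to 2 against 2, and TG against KO calls went from 2 to 4 with that block and lay at 1 to 3 leaving out 1 number. The exonic minus intronic calls went in KO from 1 to 0 without a library term, to 2 with the replicate block and to 0 to 1 leaving out 1 number, in TG against KO from 1 to 2 with the replicate block and 1 to 2 leaving out 1 number, and in WT activation from 5 to 3 without a library term and 2 to 4 leaving out 1 number. The causes of these changes were not tested. The blocks changed no call of the genotype comparisons in stimulated cells beyond those given with the results. Depth limits Fnip2 and the introns of Sesn2, the least counted members.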
